A study of Mus musculus with 2 samples.

Results

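Cycling Vcan-negative macrophages are the cells in these kidney tumours that carried a macrophage profile and messenger RNA for cell division at once. A barcode was counted as one when it held at least 3000 UMIs (unique molecules), at most 20% of them mitochondrial, at least 1 UMI of Csf1r, none of Vcan, at least 20 of C1qa, C1qb and C1qc together, and at least 4 of Mki67 and Top2a together. This gave 578 of 19451 barcodes, 301 in the library labelled SMYD3 knockdown and 277 in the library labelled WT. They were compared with 3046 cells, called zero cells here, that met the same limits but held 0 UMIs of Mki67 and Top2a (1370 and 1676; the knockdown label comes first in every pair of values). A second comparison used 893 other cycling cells (453 and 440) with at least 2 UMIs of Vcan and no limit on C1q, called Vcan-positive cycling cells.

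Csf1r is the receptor for the growth factor that macrophages need to survive and divide. C1qa, C1qb and C1qc code for the first component of complement, which macrophages make, and Vcan codes for a matrix proteoglycan made by monocytes. Many tissue macrophages renew by dividing in place, while others are replaced by monocytes from the blood. A dividing cell copies its DNA with the MCM helicase, polymerases and a supply of deoxynucleotides, then separates the copies with cyclin B and Cdk1, the kinetochore, the spindle and the anaphase-promoting complex. Mki67 coats mitotic chromosomes and Top2a untangles DNA, and both are made mainly from S phase to mitosis.

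The cells came from tumours of RENCA, a mouse kidney cancer line, in BALB/c mice, and were profiled by droplet single-cell RNA-seq with 1 library per label. The sample records give the genotypes SMYD3 knockdown and WT, name the cell type as epithelial and mention no sort. The series text speaks of immune cells sorted by CD45 and of tumours engrafted in the organ of origin that were either control or SMYD3 knockdown, so macrophages of both libraries are host cells of 1 strain. SMYD3 is a lysine methyltransferase. How many mice were pooled, their age and the knockdown reagent are not given in the sources used here.

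With 1 library per label there was no replicate and no test. The ratios below carry exact 95% intervals that cover the counting of UMIs only, not the spread between mice or libraries. Levels are CPM, the UMIs of a gene summed over a set of cells per 1000000 UMIs of that set. The libraries held 95803321 and 91523767 UMIs over 10186 and 9265 barcodes, and 22 barcode sequences occurred in both. Only 2 cycling cells had such a shared sequence, and no sequence belonged to a cycling cell in both libraries. In cells with at least 3 UMIs of the keratins Krt8 and Krt18 and none of Ptprc or Csf1r, where tumour cells would lie, Smyd3 stood at 22.9 CPM (interval 14.8 to 33.7, 49 cells) under the knockdown label and 18.7 CPM (12.2 to 27.5, 67 cells) under the WT label. That check rested on 25 and 26 UMIs and took any cell within these limits, so it cannot decide whether tumour cells held less Smyd3. It did not show less Smyd3 under the knockdown label, and each library is named by its label throughout.

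The defining markers were present in the cycling cells. C1qa (chr4:136895917-136898803, minus strand; this and the gene positions below are from the GENCODE annotation of mm10) stood at 5972 and 6393 CPM and was found in all 578 cells. It counted toward the minimum of 20 C1q UMIs, so its presence and its UMIs per cell follow in large part from the choice. Gas6 (chr8:13465374-13494490, minus strand), a bridge between dying cells and the receptors of phagocytes, stood at 445 and 454 CPM and was found in 89.4% and 90.6% of cells. Cells with at least 20 UMIs of S100a8 and S100a9, none of Csf1r and at least 500 UMIs in all are here called neutrophil cells. They held 0.944 and 1.27 C1qa UMIs per cell against 112 and 109 in cycling cells. For Gas6 they held 0.0393 and 0.0904 UMIs per cell against 8.34 and 7.71. Their median depth was 1482 and 1443 UMIs against 17641 and 16013, so the contrast per UMI was smaller than these values per cell. Ube2c (chr2:164769898-164778822, plus strand), the enzyme through which the anaphase-promoting complex marks its targets, played no part in the choice and was found in 77.1% and 77.98% of cycling cells and 10.5% and 9.73% of zero cells. Mki67 (chr7:135689784-135716361, minus strand) stood at 547 and 564 CPM and Top2a (chr11:98992943-99024189, minus strand) at 434 and 462 CPM, by choice of the cells.

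Markers of most other lineages were low. Summed over their lists, T cell genes reached 15.95 and 8.29 CPM, B cell genes 8.33 and 6.17, natural killer cell genes 2.48 and 1.49, dendritic cell genes 9.93 and 16.4, fibroblast genes 2.84 and 2.76, endothelial genes 8.86 and 7.02, erythroid genes 0 and 0.213, mast cell and basophil genes 0.177 and 0, and tumour epithelial genes 16.7 and 22.5. Macrophage markers summed to 16185 and 16956 CPM, in a list that holds Csf1r, C1qa, C1qb and C1qc of the choice. Monocyte markers, with Vcan at 0 by choice, summed to 1114 and 927 CPM, against 1446 and 997 in zero cells. Ly6g, Camp and Ltf of neutrophils, Ncr1, Klrb1c, Gzma and Gzmb of natural killer cells, Cd79a, Ms4a1 and Pax5 of B cells and Krt19 of epithelium were at 0 in the cycling cells of both libraries. The 10 neutrophil genes summed to 172 and 90.4 CPM and 14 genes of the exocrine pancreas to 397 and 36.4 CPM, so these 2 lists were unequal between the labels.

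Cycling cells held more UMIs per cell than zero cells. A minimum count favours deeper cells and a count of 0 shallower ones, so this follows in part from the choice. In cycling cells the median was 17641 and 16013 UMIs per cell. It was 11407 and 10078 in zero cells and 22490 and 21748.5 in Vcan-positive cycling cells, which also had a minimum of Vcan. Cycling Vcan-negative cells held a median of 4381 and 4176 genes, and mitochondrial UMIs made up a median of 1.33% and 1.36%. The median count of Mki67 and Top2a was 13 and 11 UMIs and the highest 91 and 123. Top2a alone was missing from 53 and 40 cells and Mki67 from 0 and 3.

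The count of Mki67 and Top2a had no gap at the minimum of 4. There were 402 and 404 cells with 1 UMI, 133 and 117 with 2, 66 and 60 with 3, 37 and 43 with 4, and 63 and 50 with 30 or more. Just outside the minimum, cells with 3 UMIs had 27.2 and 59.8 CPM of Ube2c, and just inside it, cells with 4 had 94.1 and 101 CPM. Cells with 15 or more had 857 and 903 CPM. Cells at 1 to 3 UMIs thus lay between zero cells and cycling cells in a gene that the count did not include.

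**Figure D1:**
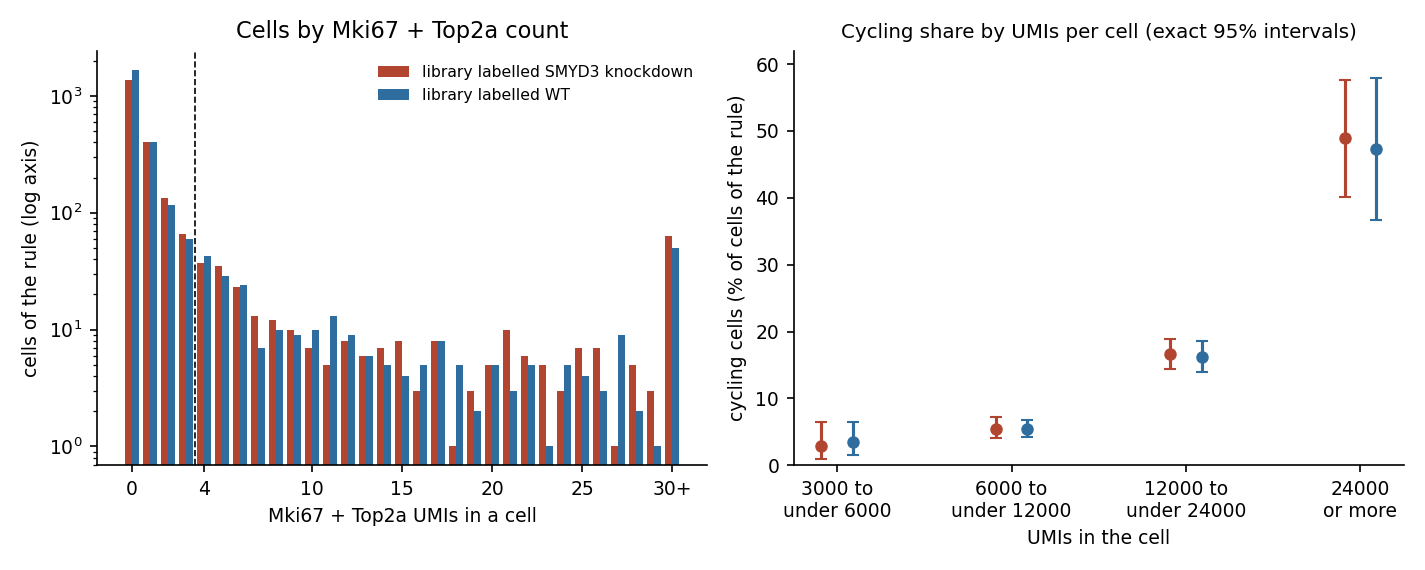
Left, number of cells that met the limits on UMIs, mitochondrial share, Csf1r, Vcan and C1q, by their count of Mki67 and Top2a, with the minimum of 4 marked. Right, share of those cells with 4 or more such UMIs by range of UMIs per cell, with exact 95% binomial intervals; it runs from 2.82% and 3.46% in the smallest cells to 48.9% and 47.3% in the largest.

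The genes furthest above zero cells were those of mitosis. In all, 711 of 11631 measured genes (6.11%) were at least 1.5-fold higher in cycling cells in both libraries and 97 (0.834%) at least 1.5-fold lower. The cells were chosen on 2 genes of this programme, so the counts describe the choice. All 21 measured mitotic cyclins and kinases, 27 kinetochore and passenger complex genes, 28 spindle and cytokinesis genes and 19 condensation and chromatin genes were among the higher genes. Their median log2 differences were 3.38 and 3.500, 2.97 and 3.02, 3.51 and 3.61, and 2.50 and 2.69, against 0.01 and 0.02 over all genes. These log2 differences are of CPM + 5, which understates the change of low genes.

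Spindle genes were among those with the largest differences. Nusap1, which binds spindle microtubules, stood at 200.3 and 211 CPM in cycling cells and 1.05 and 0.773 in zero cells, a ratio of 191 (119 to 329.7) and 273 (162 to 502). Prc1, which bundles the spindle midzone, stood at 212 and 251 CPM against 1.85 and 1.71, and Tpx2, which starts microtubules near chromosomes, at 168 and 185 against 2.65 and 2.71. Stmn1, a microtubule regulator, was abundant in zero cells as well, at 86.9 and 86.5 CPM, and stood at 769 and 887 CPM in cycling cells, a ratio of 8.84 and 10.2. In all 4 genes both libraries of cycling cells lay above both libraries of zero cells. Genes were named for large differences, so this follows in part from the naming.

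Cyclins and kinases of entry into mitosis were low in zero cells. Ccnb1, cyclin B1, was at 141 and 161 CPM against 1.48 and 1.05, and Ccna2, cyclin A2, at 164 and 167 against 1.48 and 1.93. Their partner Cdk1 was at 336 and 315 CPM against 13.98 and 11.6, a ratio of 24.03 (20.9 to 27.7) and 27.2 (23.5 to 31.6). The receptor of hyaluronan and spindle protein Hmmr was at 147 and 157 CPM against 2.03 and 1.10. For these 4 genes both libraries of zero cells lay far under both libraries of cycling cells, again in part by the naming.

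Kinetochore genes and the control of the anaphase-promoting complex followed. Birc5, the survivin subunit of the passenger complex, was at 489 and 515 CPM against 15.02 and 11.2, its partner Cdca8 at 304 and 314 against 9.30 and 9.67, and Cenpf, a kinetochore protein, at 226 and 250.4 against 3.51 and 3.37. Of 14 genes of the anaphase-promoting complex and its control 11 were higher. Ube2c was at 529 and 555 CPM against 11.3 and 11.1 (ratio 46.7 (40.2 to 54.5) and 49.96 (43.3 to 57.96)) and the activator Cdc20 at 162 and 179 against 3.02 and 2.82. The subunits Cdc16, Cdc23 and Cdc26 were not 1.5-fold apart in both libraries, with Cdc16 at 26.8 and 29.97 CPM against 21.2 and 20.1. Of chromatin genes, Hmgb2, a DNA-bending protein, was at 1041 and 1068 CPM against 109.5 and 111, and the lamin Lmnb1 at 282 and 288 against 23.7 and 17.6.

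**Figure D2:**
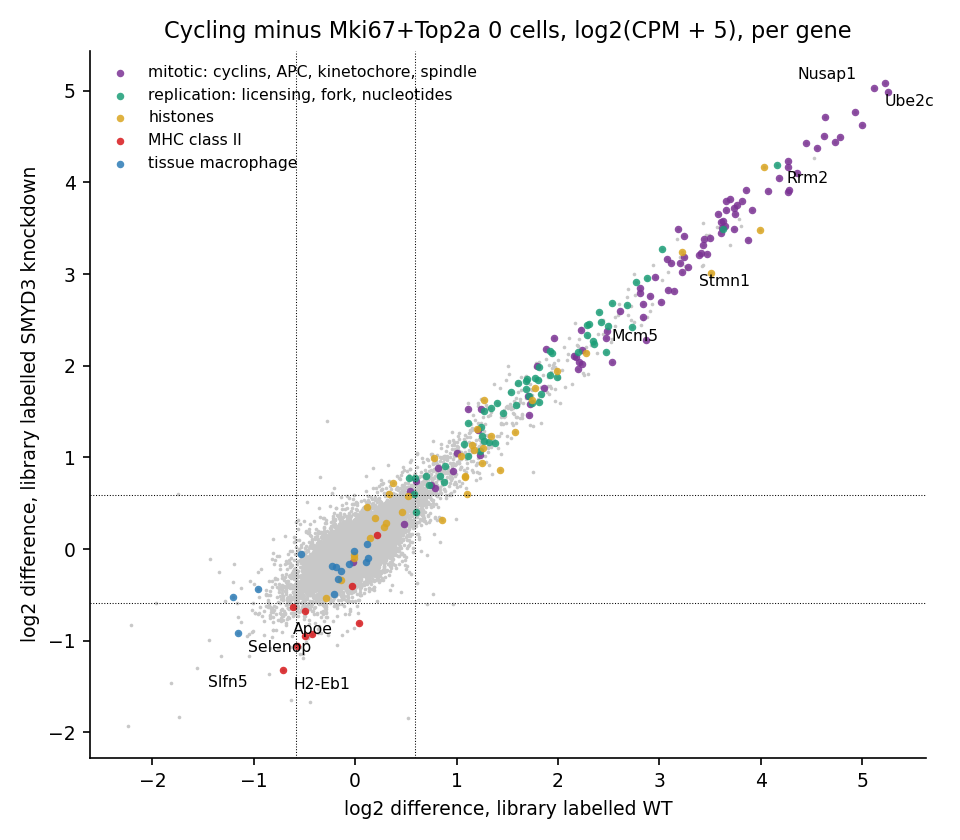
Each point is a gene, placed by its log2(CPM + 5) difference between cycling cells and zero cells in the library labelled WT (x) and in that labelled SMYD3 knockdown (y), with 1.5-fold marked. The mitotic genes reach furthest to the upper right, the replication genes mostly lie between them and 0 with some overlap, and the macrophage genes lie near or under 0.

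Genes of DNA replication were higher too, with smaller ratios and more RNA left in zero cells. All 19 licensing and helicase genes, 26 of 28 fork and polymerase genes and 9 of 10 genes of deoxynucleotide synthesis were at least 1.5-fold higher in both libraries, with median log2 differences of 1.81 and 1.78, 1.69 and 1.61, and 2.35 and 2.42. Pold3, Timeless and Nme1 were not. Mcm5, a helicase subunit, was at 74.1 and 60.8 CPM against 9.24 and 7.29, a ratio of 8.02 (6.64 to 9.73) and 8.34 (6.76 to 10.3). Pcna, the sliding clamp, was at 422 and 358 CPM against 113 and 107, a ratio of 3.73 and 3.35.

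The ratios within replication ranged widely. Rrm2, the regulated subunit of ribonucleotide reductase, was at 183 and 159 CPM against 5.30 and 4.197, a ratio of 34.6 and 37.8, and the salvage kinase Tk1 at 87.03 and 86.3 against 3.20 and 2.37. Dck, a salvage kinase that resting cells also use, was at 94.7 and 87.6 CPM against 37.4 and 33.9, a ratio of 2.53 and 2.58. Clspn, which signals stalled forks, was at 54.6 and 50.2 CPM against 1.17 and 1.77, and Pclaf, a partner of Pcna, at 453 and 408 against 18.8 and 12.9. Zero cells therefore kept more of Pcna and Dck than of Rrm2, Tk1 or Clspn.

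Histone genes were split. Of 36 measured genes 22 were higher in both libraries and none lower. H1f5, a linker histone, was at 131 and 135 CPM against 2.59 and 3.53, and H3c3 at 46.3 and 49.5 against 0.431 and 0.828. The linker histone H1f2 was at 206 and 232 CPM against 189 and 209.7 and was not called. Histone genes are near copies of each other and their messages mostly lack a poly(A) tail, so the split of reads among them is uncertain.

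Across counts of Mki67 and Top2a, pooled mitotic genes were higher in each range from 4 UMIs up. Pooled replication genes differed less between the upper ranges, which was not so in the median cell. The 90 mitotic genes summed to 1720 and 1565 CPM at 0 UMIs, 4584 and 5705 at 4, 9721 and 10759 at 8 to 14, and 16594 and 17531 at 15 or more. The 57 replication genes summed to 1094 and 967 CPM at 0 UMIs, 2853 and 2490.1 at 4, 4732 and 3837 at 8 to 14, and 4565 and 4169 at 15 or more. The median cell gives each cell the same weight. There, replication genes went from 2616 and 2190.1 CPM at 8 to 14 UMIs to 4111 and 3244 at 15 or more. This was a larger step than in the pooled sums. Mitotic genes went from 10323 and 11997 CPM to 16822 and 17601 between the same ranges, a rise by a like factor. Histone genes summed to 641 and 698 CPM at 0 UMIs, 519 and 949 at 4, 665 and 880 at 5 to 7, and 2001 and 2562 at 15 or more. Under the knockdown label they were thus lower at 4 UMIs than at 0. Mki67 and Top2a belong to the mitotic programme themselves, so the climb of that list follows from the ordering.

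**Figure D3:**
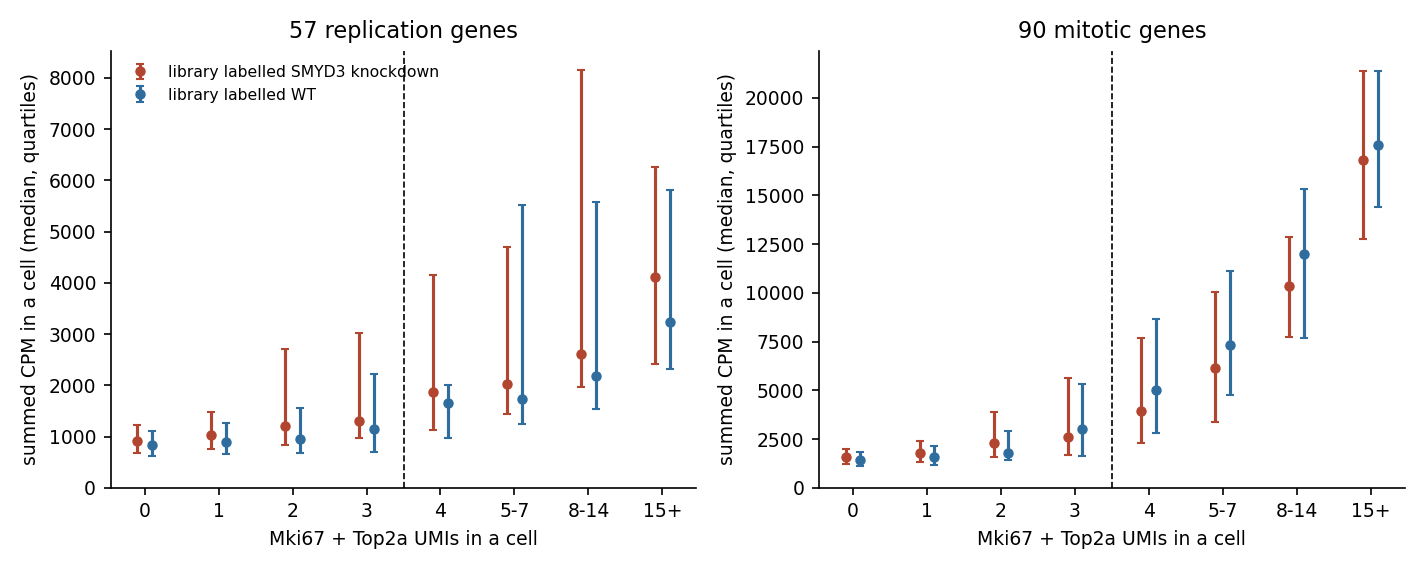
Summed CPM per cell of 57 replication genes and 90 mitotic genes by the cell's count of Mki67 and Top2a, as the median (point) and quartiles (bars) over cells of each library, with the minimum of 4 marked. At 15 or more UMIs the median cell has 4111 and 3244 CPM of replication genes and 16822 and 17601 CPM of mitotic genes.

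The cycling cells held both cells rich in replication genes and cells rich in mitotic genes. Per cell, the replication sum ran from a 10th percentile of 1191 and 990.3 CPM through a median of 2924 and 2394 to a 90th percentile of 8329 and 8169. The mitotic sum ran from 3189 and 3790.5 through 11322 and 12635 to 21873 and 21839. The Spearman correlation of both sums was 0.02 over 301 cells and 0.11 over 277, a description over cells that share a library and differ in depth. The replication sum exceeded the mitotic sum in 49 cells (16.3%) and 34 cells (12.3%), and Ccnb1 was found in 65.4% and 63.9% of cells.

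Genes of both groups also differ in the letters before their starts. Many vertebrate genes of G2 and mitosis carry CCAAT boxes, which NF-Y binds, and TTTGAA, the core of the cell cycle homology region, while many replication genes carry E2F sites. RefSeq start sites (GRCm38.p6) were matched for 76 of the 90 mitotic genes (84 windows of 250 bases before a start) and 47 of the 57 replication genes (57 windows), and both strands were searched. CCAAT was found in 67.9% of mitotic, 52.6% of replication and 33.8% of all 32851 windows, TTTGAA in 28.6%, 14.04% and 15.99%, and both in 25%, 7.02% and 5.55%. TTTCCCGC or TTTGGCGC, forms of the E2F site, were found in 3.57%, 12.3% and 1.30%, with the replication genes being Cdc6, Gins3, Hells, Mcm5, Mcm6, Mcm7 and Pola1. A match describes the letters and not binding.

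The windows of Ube2c and Cdc20, both far higher in cycling cells, of Top2a, a gene of the choice, and of Mcm5, a replication gene with an E2F form, are shown to set both patterns side by side. Capitals mark the matches to these letters, read on the printed strand or on its complement. The windows are chr2:164769679-164769928 (plus strand), chr4:118437344-118437593 (minus), chr11:99024190-99024439 (minus) and chr8:75109259-75109508 (plus), printed 5′ to 3′ toward the gene.
Ube2c: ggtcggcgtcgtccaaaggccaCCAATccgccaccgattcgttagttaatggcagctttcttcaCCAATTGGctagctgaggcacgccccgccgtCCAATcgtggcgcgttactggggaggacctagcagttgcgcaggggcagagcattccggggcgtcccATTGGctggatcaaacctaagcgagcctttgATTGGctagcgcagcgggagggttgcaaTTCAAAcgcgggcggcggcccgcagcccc
Cdc20: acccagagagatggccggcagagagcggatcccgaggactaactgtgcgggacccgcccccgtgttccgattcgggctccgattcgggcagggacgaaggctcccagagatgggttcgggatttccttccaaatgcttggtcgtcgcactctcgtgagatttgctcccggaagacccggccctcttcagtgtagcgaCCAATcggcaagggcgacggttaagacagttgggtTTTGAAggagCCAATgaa
Top2a: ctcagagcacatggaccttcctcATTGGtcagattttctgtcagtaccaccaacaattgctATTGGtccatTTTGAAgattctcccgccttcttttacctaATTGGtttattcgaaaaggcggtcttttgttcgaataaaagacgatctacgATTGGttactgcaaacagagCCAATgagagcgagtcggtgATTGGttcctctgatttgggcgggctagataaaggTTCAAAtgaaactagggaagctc
Mcm5: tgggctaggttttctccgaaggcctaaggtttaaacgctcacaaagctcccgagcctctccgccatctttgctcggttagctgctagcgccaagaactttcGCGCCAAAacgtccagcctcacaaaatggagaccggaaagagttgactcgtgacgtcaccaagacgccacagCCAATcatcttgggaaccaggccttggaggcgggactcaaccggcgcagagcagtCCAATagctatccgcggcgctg
Ube2c has 6 CCAAT matches, a pair of which overlap, and 1 TTTGAA match. Cdc20 has 2 and 1, and Top2a has 6 and 2. Mcm5 has 2 CCAAT matches, 1 E2F form and no TTTGAA.

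Genes that govern entry into the cycle differed less than genes that carry it out. Of 26 measured G1 cyclins, inhibitors and E2F factors 12 were higher and none lower. Ccne1 and Ccne2, the E cyclins of the start of S phase, were at 29.2 and 29.3 CPM against 5.05 and 3.20 and at 20.7 and 16.8 against 1.29 and 1.33. Ccnd1, a D cyclin that growth factors raise, was at 138 and 113 CPM against 152 and 115, a ratio of 0.909 (0.837 to 0.985) and 0.982 (0.891 to 1.08). The inhibitor p21, Cdkn1a, was at 158 and 149.9 CPM against 149 and 157. The inhibitor p18, Cdkn2c, was far higher in cycling cells, at 186 and 207 CPM against 12.7 and 14.2, a ratio of 14.6 (12.6 to 17.05) and 14.5 (12.7 to 16.8).

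None of 17 measured genes of macrophage growth control was higher in cycling cells, and Cebpa and Klf4, transcription factors of myeloid differentiation, were lower. Cebpa was at 65.1 and 72.9 CPM against 111 and 122, a ratio of 0.585 (0.522 to 0.655) and 0.597 (0.531 to 0.669), and Klf4 at 438 and 539 CPM against 673 and 866, a ratio of 0.651 and 0.623. Maf, a factor known to hold back macrophage division, was not called, at 1215 and 1368 CPM against 1344 and 1453.

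Among genes with at least 30 UMIs and 50 CPM in the higher set of each library, the lowest relative to zero cells was Slfn5, a Schlafen protein that interferon induces, at 51.8 and 39.97 CPM against 135 and 127, a ratio of 0.384 (0.339 to 0.434) and 0.314 (0.269 to 0.365). Mxd4, which opposes Myc, was at 36.2 and 48.7 CPM against 87.6 and 106, and Selenop, a secreted selenium carrier, at 1130.0 and 1256 against 2133 and 2809.6, a ratio of 0.530 and 0.447. Ndrg1, a stress-responsive gene, was at 69.1 and 89.1 CPM against 186 and 165. Ypel3, Thbs1, Pltp, Fcgr4, Gpx3, Borcs6, Ccdc152, Pld3, Map1lc3a, Adgre5 and Apoe complete the 15 lowest. When zero cells were weighted to the UMIs per cell of cycling cells, Apoe, Adgre5, Borcs6, Ccdc152, Fcgr4 and Thbs1 were no longer 1.5-fold lower.

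For C1qa, Csf1r and Gas6 a lower CPM went with more UMIs per cell. A cycling cell held 112 and 109 C1qa UMIs and a zero cell 83.5 and 76.5, and for Gas6 the values were 8.34 and 7.71 against 6.32 and 6.42. For Apoe the difference per cell was small. Apoe, a lipid carrier, was at 12823 and 14269 CPM against 21073 and 23493, a ratio of 0.609 and 0.607. Per cell, the far shallower neutrophil cells held 2.27 and 3.27 Apoe UMIs. A cycling cell held 240.3 and 242 and a zero cell 249.8 and 254. Cycling cells had 1.58 and 1.57 times as many UMIs in all. Selenop was lower per cell as well, at 21.2 and 21.3 UMIs against 25.3 and 30.4. Genes of other cell types stood as follows. S100a9 of neutrophils had 1.25 and 0.531 UMIs per cycling cell against 1.20 and 0.506 (CPM ratio 0.656 and 0.667), and the 14 pancreatic genes had 7.43 against 7.47 under the knockdown label (CPM ratio 0.629), but 0.617 against 0.3998 under the WT label (CPM ratio 0.982). With zero cells weighted to the UMIs per cell of cycling cells, 156 genes rather than 97 were lower in cycling cells, and the log2 difference of Apoe was -0.28. The part of RNA from other cells in the lower CPM values was not tested.

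Few genes of the macrophage programme were 1.5-fold apart from zero cells, though the medians of its lists lay under 0. Of 8 measured macrophage markers outside the choice 1 was lower and none higher, with a median log2 difference of -0.28 and -0.41. None of 20 genes of complement and efferocytosis was 1.5-fold apart in both libraries, with a median log2 difference of -0.19 and -0.17. C1qa was at 5972 and 6393 CPM against 7046 and 7084, Gas6 at 445 and 454 against 534 and 594, and Csf1r at 348 and 392 against 453 and 515, where C1qa and Csf1r had minimum counts in both groups. Of 14 tissue macrophage genes (median -0.19 and -0.18) only Selenop was called. The mannose receptor Mrc1 was at 2122 and 2185 CPM against 2413 and 2554, and the folate receptor Folr2 at 377 and 426 against 434 and 487. Of 17 genes of lipid-associated macrophages (median -0.34 and -0.33) Apoe and the cholesterol exporter Abca1 were lower.

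MHC class II genes, which present antigen to T cells, had the lowest median of these lists, -0.80 and -0.49 over 9 measured genes, and H2-Eb1 and H2-DMb1 were called. H2-Eb1 was at 143 and 188 CPM against 365 and 310.4, a ratio of 0.393 (0.365 to 0.423) and 0.606 (0.564 to 0.651), and Cd74, the invariant chain, at 629.6 and 716 CPM against 1197 and 962. H2-Aa, found in 35.5% and 45.1% of cycling cells, was at 311 and 372 CPM against 652 and 555. The 20 interferon response genes had a median of -0.38 and -0.25. Of these the chemokine Cxcl10 was higher, at 227 and 157 CPM against 116 and 97.1 (ratio 1.97 (1.83 to 2.11) and 1.62 (1.48 to 1.76)). Cxcl9, a gene of low level, was lower, at 0.709 and 2.76 CPM against 4.80 and 9.44. Of 19 genes of dissociation and heat stress (median -0.26 and -0.34) Junb and Egr1 were lower. Of 20 hypoxia and glycolysis genes (median -0.25 and -0.05) only Ndrg1 was lower. Of 20 genes of cholesterol synthesis (median -0.09 and -0.05) none was called.

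**Figure D4:**
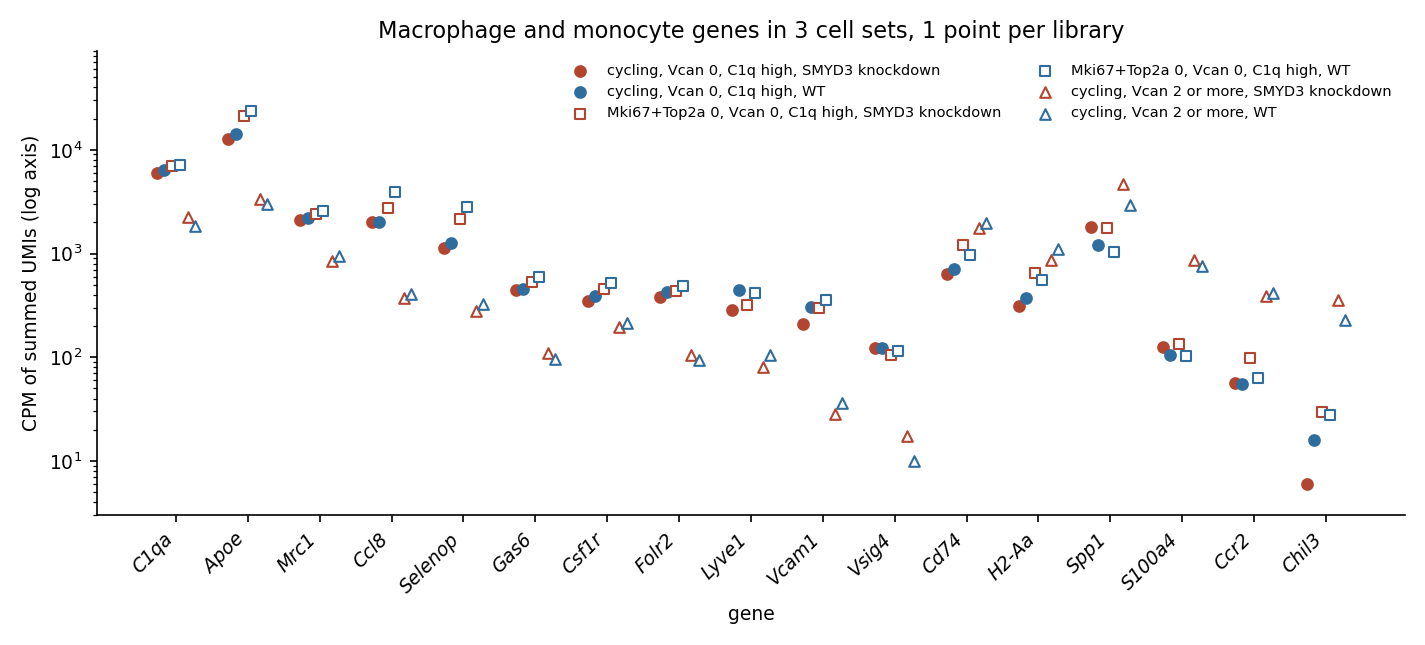
CPM of summed UMIs (log axis) of macrophage and monocyte genes in cycling Vcan-negative cells (filled circles), zero cells (squares) and cycling Vcan-positive cells (triangles), 1 point per library (red, knockdown label; blue, WT label). Cycling and zero cells lie close together for Gas6 and Mrc1, while Vcan-positive cycling cells lie apart from both.

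Set against Vcan-positive cycling cells, the Vcan-negative ones differed in macrophage genes and in a few cycle genes. Of 10806 measured genes 443 (4.1%) were at least 1.5-fold higher in the Vcan-negative cells in both libraries and 509 (4.71%) lower. None of the 19 licensing, 28 fork, 10 nucleotide, 27 kinetochore, 28 spindle and 19 condensation genes was called. Both sets had the same minimum of Mki67 and Top2a, so alike levels of cycle genes follow in part from the choice. Ube2c was at 529 and 555 CPM against 469 and 449.8, a ratio of 1.13 (1.08 to 1.18) and 1.23 (1.17 to 1.29). Of the other cycle genes Pbk, Cdc25b and Pttg1 were higher, and Mybl2, the E2F factor E2f2 and the G1 cyclins Ccnd2 and Ccnd3 lower. Ccnd2 was at 40.9 and 29.1 CPM against 72.8 and 80.5 and Ccnd3 at 63.5 and 57.8 against 114 and 112. Cdkn2c was at 186 and 207 CPM against 84.4 and 83.5 and Cdkn1a at 158 and 149.9 against 324 and 399, so the inhibitors p18 and p21 lay on opposite sides.

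Tissue macrophage genes lay on the Vcan-negative side. Of 14 genes 13 were higher, with a median log2 difference of 1.78 and 1.81 against -0.01 and -0.03 over all genes. Vcam1, an adhesion molecule, was at 208 and 307 CPM against 28.4 and 35.99, a ratio of 7.33 (6.45 to 8.35) and 8.54 (7.60 to 9.61). The chemokine Ccl8 was at 2016 and 2004 CPM against 375 and 404, and the growth factor Igf1 at 76.6 and 88.4 against 12.3 and 18.6. Vsig4, a complement receptor of resident macrophages, was at 124 and 124 CPM against 17.5 and 9.95, with 30.8% of its UMIs under the knockdown label in 1 cell. Gas6 was at 445 and 454 CPM against 110.1 and 95.4 and was found in 37.3% and 32.3% of Vcan-positive cycling cells. Ms4a7, Cp, Tmem176b, Smagp and Ccdc152 were also among the 10 highest.

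Monocyte genes, antigen presentation, glycolysis and cholesterol synthesis lay on the other side. Of 10 measured monocyte genes 8 were lower. Ccr2, by which monocytes enter tissue, was at 56.9 and 55.1 CPM against 386 and 419, and Chil3, a chitinase-like protein, at 6.03 and 15.9 against 358 and 228. The calcium-binding S100a4 was at 125 and 106 CPM against 872 and 754, and Car4, a carbonic anhydrase, at 3.01 and 2.13 against 174 and 116. Of 9 MHC class II genes 8 were lower (median -1.46 and -1.44), with H2-Aa at 311 and 372 CPM against 863 and 1114. Of 20 hypoxia and glycolysis genes 17 were lower (median -0.89 and -0.95), with the glucose transporter Slc2a1 at 55.8 and 53.8 CPM against 167 and 177, and of 20 cholesterol synthesis genes 8. Vcan-positive cycling cells held a median of 39 and 12 C1q UMIs, so the limits on Vcan and C1q had a part in which cells were set against each other.

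The share of cycling cells was higher under the knockdown label over all cells and differed by fewer points within ranges of depth. Thinning to 1 depth, described below, used another measure, at least 1 UMI of Mki67 or Top2a rather than 4. On that measure the difference was 5.84 points before thinning and 2.51 points on average after it. Of the cells that met the other limits, 301 of 2272 (13.2%, exact binomial interval 11.9 to 14.7) and 277 of 2534 (10.9%, 9.74 to 12.2) were cycling, a difference of 2.32 percentage points (Newcombe interval 0.473 to 4.18) at median depths of 12570.5 and 11142.5 UMIs. Within 3000 to under 6000 UMIs the shares were 2.82% and 3.46%, within 6000 to under 12000 they were 5.48% and 5.40%, within 12000 to under 24000 they were 16.6% and 16.1%, and from 24000 up they were 48.9% and 47.3%. The differences were -0.637, 0.0834, 0.459 and 1.64 points, and the interval of each included 0. In Vcan-positive cells the shares were 17.7% and 18.1%.

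Every cell was also thinned at random to 3000 UMIs. On the exact mean over all draws, at least 1 UMI of Mki67 or Top2a was left in 19.6% and 17.1% of cells, a difference of 2.51 points, against 39.7% and 33.9% before thinning, a difference of 5.84 points. In 1 draw the shares were 19.1% and 18.0%, a difference of 1.19 points (-1.01 to 3.40), and in a second draw 18.8% and 16.9%, a difference of 1.91 points, so a single draw moved the difference by over 1.5 times. Of the neutrophil cells, 2.12% and 2.60% held such a UMI at median depths of 1482 and 1443 UMIs. Among neutrophil cells of at least 3000 UMIs, 3 of 54 (5.56%, interval 1.16 to 15.4) and 4 of 29 (13.8%, 3.89 to 31.7) kept one after thinning, too few to set a background at that depth.

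The thinned cells of the second draw were split by a UMI of macrophage marker genes. No background share was set for these markers, so a split by a UMI is not a split by cell state. In that draw, cells with a UMI of Lyve1, Cd163 or Folr2, genes of resident macrophages near vessels, held a UMI of Mki67 or Top2a in 18.2% and 16.97% of cases and cells without one in 20.1% and 16.8%. Cells with a UMI of Arg1 or Spp1, genes of tumour-associated macrophages, did so in 18.2% and 17.1% and cells without in 20.2% and 16.7%. For these, and for Cx3cr1 with Vcam1, Gpnmb with Mmp12, the MHC class II genes, and Isg15 with Ifit3 and Rsad2, all 12 intervals of the difference included 0. The widest gap was that of the interferon genes under the WT label, at 13.3% with and 17.5% without, a difference of -4.22 points (-7.82 to 0.0882).

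Between the labels, cycle genes of the cycling cells were close. Of 10146 measured genes 84 (0.828%) were at least 1.5-fold higher under the knockdown label and 119 (1.17%) lower, while in zero cells 74 of 12203 (0.606%) were higher and 88 (0.721%) lower. The median log2 difference was 0.12 for 19 licensing genes, 0.14 for 28 fork genes, -0.05 for 21 mitotic cyclins and kinases and -0.12 for 28 spindle genes, and none of these genes was 1.5-fold apart. Cells of both labels passed the same minimum of 4 UMIs of Mki67 and Top2a, so alike levels of these lists follow in part from the choice. Smyd3 was at 9.22 and 7.44 CPM (ratio 1.24, 0.792 to 1.96) and Srebf1, a regulator of lipid synthesis, at 18.3 and 15.1 (1.21, 0.885 to 1.66). Cd47, a signal against phagocytosis, was at 273 and 288 CPM (0.948, 0.880 to 1.02) and its receptor Sirpa at 332 and 338 (0.983, 0.919 to 1.05). The intervals of these 4 ratios included 1.

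**Figure D5:**
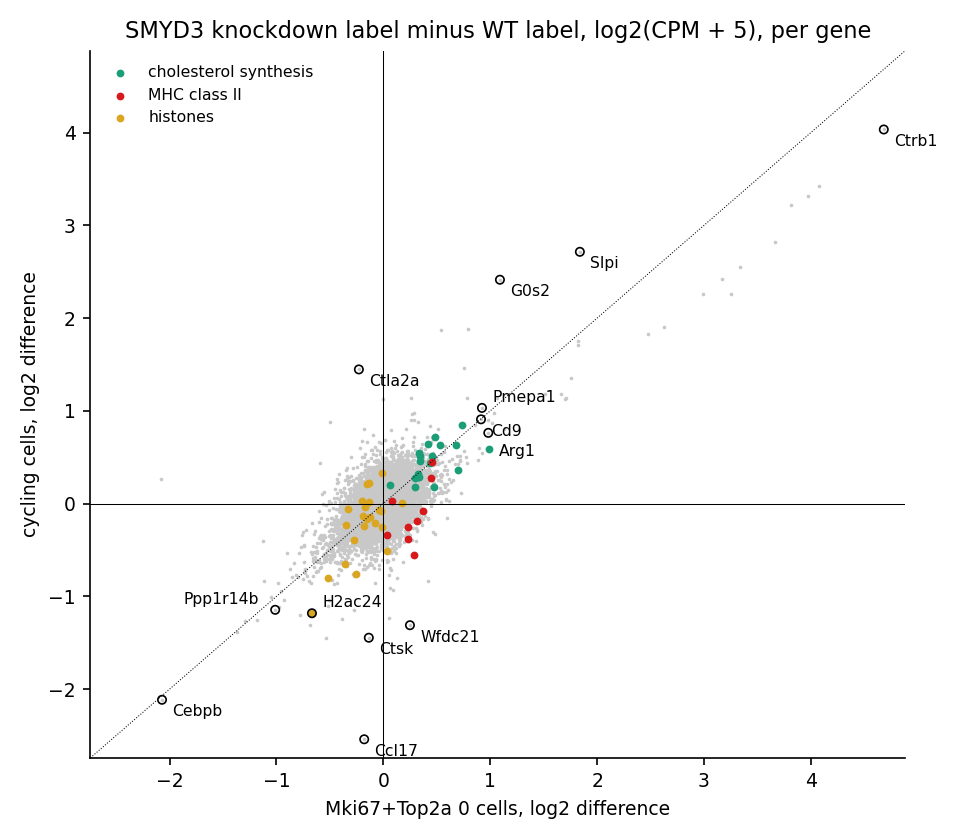
Each point is a gene, placed by its log2(CPM + 5) difference between the library labelled SMYD3 knockdown and that labelled WT in zero cells (x) and in cycling cells (y). Cebpb lies far down on the line of equal differences, and Ctsk lies below that line.

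Cebpb (chr2:167688915-167690418, plus strand), a transcription factor of inflammatory and growth responses, had the lowest ratio of the 10 lowest genes under the knockdown label. It was at 176 and 778 CPM in cycling cells (ratio 0.226, 0.210 to 0.242) and 207 and 884 CPM in zero cells (0.234, 0.225 to 0.243), and at 258 and 932 CPM in Vcan-positive cycling cells. It was found in 89.04% and 100.0% of cycling cells. Ppp1r14b, a phosphatase inhibitor, was at 181 and 406 CPM (0.445, 0.412 to 0.481; zero cells 0.489), Ube2m, an enzyme of neddylation, at 84.7 and 179 (0.474, 0.423 to 0.531; zero cells 0.509) and Sec61g, a translocon subunit, at 38.3 and 78.4 (0.488, 0.411 to 0.579; zero cells 0.485). Smap1, Akirin2, Chaserr and Ppp1r12c were also among the 10 lowest. For Cebpb, Ppp1r14b, Ube2m and Sec61g the zero cells lay on the same side by a like ratio.

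Cathepsin K, Ctsk, lay apart from that pattern, at 38.1 and 112 CPM in cycling cells (0.339, 0.288 to 0.398) and 60.4 and 66.9 CPM in zero cells (0.903, 0.829 to 0.983), though only 46 and 49 cycling cells held it. Of 37 measured histone genes 4 were lower under the knockdown label (H2ac8, H2ac18, H2ac24 and H4c8) and none higher. H2ac24 was at 103 and 239.6 CPM (0.429, 0.388 to 0.475) and 4.68 and 10.4 CPM in zero cells.

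Genes of cholesterol synthesis lay higher under the knockdown label as a group. All 19 measured genes were above 0, with a median log2 difference of 0.46 against -0.0043 over all genes, and 6 were at least 1.5-fold higher. In zero cells all 20 were above 0, with a median of 0.38 and 4 called. Idi1, an isomerase of the pathway, was at 49.6 and 25.3 CPM (1.96, 1.58 to 2.45), Sqle, which makes squalene epoxide, at 45.02 and 27.2 (1.65, 1.33 to 2.06), and Insig1, which holds the pathway back when sterols are plentiful, at 62.7 and 38.3 (1.64, 1.37 to 1.97). Fdps and Sc5d were also called. With a minimum of 2 UMIs of Mki67 and Top2a the log2 difference of Insig1 was 0.456, under 1.5-fold. The list median was 0.32 with that minimum and 0.51 with a minimum of 8.

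Other genes higher under the knockdown label included Pmepa1, an inhibitor of TGF-beta signalling, at 65.2 and 29.3 CPM (2.22, 1.82 to 2.72; zero cells 2.01) and the tetraspanin Cd9 at 228 and 119 (1.91, 1.73 to 2.12; zero cells 1.92). Arginase 1, Arg1, was at 532 and 312 CPM (1.71, 1.60 to 1.82; zero cells 1.99), but its log2 difference was 0.45, under 1.5-fold, without cells that held markers of another lineage. The activation antigen Cd69 was at 61.3 and 32.95 CPM (1.86, 1.54 to 2.26; zero cells 1.19). Csf1, the ligand of Csf1r, was at 33.9 and 15.7 CPM (2.15, 1.64 to 2.85; zero cells 1.25). Cyp26b1, which breaks down retinoic acid, was at 68.95 and 37.4 CPM and the collagenase Mmp13 at 102 and 61.6, and neither was 1.5-fold apart with a minimum of 8 UMIs of Mki67 and Top2a.

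Some of the highest ratios came with few cells or with genes of other cell types. Slpi, a protease inhibitor, was at 125 and 14.9 CPM, with 50% of its UMIs under the knockdown label in 1 cell, and its log2 difference was 0.13 without cells that held markers of another lineage. S100a9 was at 66.5 and 31.2 CPM (2.13, 1.75 to 2.59), with 36.8% and 40.1% of its UMIs in 1 cell of each library, and its log2 difference was 0.21 without cells with other markers. Ctrb1, a pancreatic protease, was at 76.9 and 0 CPM, at least 121-fold higher against 3 UMIs over all cycling cells of the library labelled WT, and was found in 168 and 0 cells.

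Macrophage and state lists did not share a side. Complement and efferocytosis genes had a median log2 difference of 0.04 in cycling and -0.01 in zero cells, lipid-associated macrophage genes of 0.10 and -0.02, monocyte genes of -0.06 and 0.25, and interferon genes of -0.06 and -0.01. Hypoxia and glycolysis genes had a median log2 difference of 0.20 in cycling and 0.36 in zero cells, and stress genes of -0.26 and -0.37. Tissue macrophage genes had -0.08 and -0.21, with Lyve1, a hyaluronan receptor, at 288 and 449 CPM (0.641, 0.600 to 0.684). MHC class II genes were at -0.18 with 3 of 9 above 0 in cycling cells and 0.29 with 9 of 9 above 0 in zero cells. With a minimum of 2 UMIs of Mki67 and Top2a the median in cycling cells was 0.18, so its sign depends on that minimum.

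Genes whose library difference was unlike that in zero cells were mostly found in few cells. Ccl17, a chemokine of dendritic cells, was at 2.84 and 40.6 CPM in 7 and 11 cycling cells and 23.03 and 26.7 CPM in zero cells. Mucl1 was at 20.2 and 15.9 CPM in 10 and 20 cycling cells and 11.6 and 65.3 CPM in zero cells. Spic, a transcription factor of macrophages that recycle iron, was at 14.4 and 3.83 CPM, with 61.7% of its UMIs under the knockdown label in 1 cell. Cd5l, a secreted scavenger protein of macrophages, was at 15.8 and 0.638 CPM in 8 and 2 cells, and Cd209b, a lectin, at 2.13 and 11.7 CPM in 5 and 11 cells. With so few cells these differences had no check beyond counting.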

How the data were processed

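Droplet single-cell RNA-seq was deposited as 1 matrix of UMI counts (55357 gene rows) for both libraries, made by the authors with Cell Ranger 7.1.0, per the file headers, on mm10, per the submitters' processing notes; the annotation release and barcode filters are not given in the sources used here. A deposited table gave each barcode's library. UMIs were summed over cells of a library and set and scaled to CPM. Genes with at least 20 UMIs in either set compared were measured, and a gene was called when its log2(CPM + 5) difference was at least 1.5-fold, in both libraries for comparisons within a library. With 1 library per label no model across genes was fitted. Intervals of levels are Poisson, of shares Clopper-Pearson, of ratios conditional binomial and of differences of shares Newcombe, all at 95% and for counting error only.

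Named genes were the 15 each way against zero cells, the 10 each way between labels and against Vcan-positive cells, and the 5 each way whose library difference was most unlike that in zero cells, with limits on UMIs and CPM, plus genes of the lists; list genes named because they were not called were chosen after their values were seen. The members and lists were chosen with earlier results of these data known. Scrublet in scanpy 1.11.5 marked 0 doublets at its own threshold, so doublets were kept and removing the 723 and 603 highest scores was an alternative. Other tools were Python 3.11.15, numpy 2.4.6, scipy 1.17.1, pandas 2.3.3 and matplotlib 3.10.9. Alternatives changed the limits on cells, scaling, cell weights, pseudocount and filter. Median depth was 8309.5 and 9119 UMIs per barcode.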

Additional observations from a re-analysis of the deposited data

Results flagged for a closer look

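Of the 10 genes named for a library difference unlike that in zero cells, 2 had counting intervals of the ratio between labels wholly on one side of 1 in cycling cells and wholly on the other side in zero cells; with 1 library per label the difference was not tested. Ctla2a, a cysteine protease inhibitor, was higher under the knockdown label in cycling cells and lower in zero cells, with a log2 difference of differences of 1.68, and 89.1% of its UMIs in cycling cells under the knockdown label came from 1 cell. Wfdc21 was lower in cycling cells and higher in zero cells, with a difference of differences of -1.56. Wfdc21 was found in 24 and 36 cycling cells.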

How the results depend on the processing

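No paired analysis was possible because each label has 1 library. Of 186 summary values under alternatives, 171 stayed within the limits set for them, 14 moved and 1 reversed; the cause was not tested except where stated. The 97 genes lower in cycling cells than in zero cells became 38 with a minimum of 2 UMIs of Mki67 and Top2a, 159 with a minimum of 8, 278 with a pseudocount of 1 CPM and 156 with zero cells matched on UMIs. The 84 genes higher under the knockdown label became 136 with a minimum of 8, 265 with a pseudocount of 1 and 43 with at least 100 UMIs per gene, and the 119 lower genes became 289 and 63 under the last 2 settings; fewer genes were tested at 100 UMIs. The MHC class II median of -0.18 became 0.18 with a minimum of 2 and -0.0389 with at least 60 C1q UMIs, and the tissue macrophage median of -0.08 became -0.22 with a minimum of 2. The difference in the cycling share, 2.32 points, became -0.637, 0.0834 and 0.459 points within 3000 to under 6000, 6000 to under 12000 and 12000 to under 24000 UMIs, ranges that were chosen after seeing the data, as were the second draw and the mean over all draws of the thinned cells.

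Among named genes, all 260 values against Vcan-positive cells and 408 of 420 against zero cells kept their direction and side of 1.5-fold, and the other 12 were under it. Between the labels 540 of 558 did, 13 fell under 1.5-fold, 1 passed it and 4 reversed: the log2 difference of Spic was -0.10 with a minimum of 8, that of Ctla2a -0.42 without cells with markers of another lineage and -0.38 without the cell with most of its UMIs (a setting chosen after seeing the data), and that of Mucl1 -1.003 without the highest doublet scores. With 301 and 277 cells and no replicate library, differences of genes found in few cells could not be told from differences between single cells.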
